A study of Mus musculus with 30 samples.

Results

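The posterior Hox genes described here are Hoxa10, Hoxa11, Hoxa13, Hoxb13, Hoxd9, Hoxd10, Hoxd11 and Hoxd13, 8 of the 14475 genes in the deposited expression table, taken from it by gene name. They were measured by RNA sequencing in 30 libraries of mouse colon tissue, and each level is an FPKM value, the fragments per kilobase of gene length scaled to the mapped reads of the library, as the authors computed it. Of the libraries, 15 were labelled descending (distal) colon and 15 ascending (proximal) colon, and each region had 8 mutants and 7 controls. Mutants, labelled TM-DKOAsc, carried C1galt1 f/f; VillinCre-ERT2; C3GnT-/-, and controls were littermates that the protocol calls WT, with no alleles listed one by one. The enzymes C1galt1 and C3GnT (B3gnt6) build the cores of the O-glycans on mucins. Cre is made under a Villin promoter, which is active in epithelial cells of the gut, so loss of C1galt1 is aimed at epithelial cells, whereas C3GnT is missing in every cell of the mutants. Mutants and littermates received 0.5 mg tamoxifen, about 20 mg/kg, by intraperitoneal injection daily for 5 days, and tissue was analysed 5 or 10 days later, without a label for which time applied to which library.

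All mice were female and carried the same microbiota, and they were kept in 3 cages. The mice of cage A were 3.4 months old and had the strain label C57BL/6 Background. Those of cage B (2.6 months) and cage C (3.2 months) were labelled as mixed BL/6 and 129SvJ. In each region cages A and C gave 3 mutants and 2 controls, and cage B gave 2 mutants and 3 controls. The growth protocol instead places all mutants and littermates on a mixed background. Each cage had its own age, so cage and age cannot be told apart in any comparison of cages, nor can the strain label of cage A. Libraries are named here by region, genotype, cage and the number in their label. The labels do not say which mouse each library came from, so the p-values measure the spread between these libraries, which may be in part technical.

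Hox genes encode homeodomain transcription factors that lie in 4 clusters and give cells their place along the axis from head to tail. Within a cluster the genes lie in the order in which they are used along the axis, and those at the 5′ end, the posterior Hox genes, are active in the hindgut, the tail, the limbs and the urogenital tract. The hindgut forms the distal part of the colon, and adult gut tissue keeps part of this embryonic pattern.

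Both targeted genes were examined first. B3gnt6 lay at 0 to 0.06 FPKM in descending mutants against 0 to 0.43 FPKM in descending controls, and at 0 to 0.53 FPKM in ascending mutants against 0.11 to 19.5 FPKM in ascending controls. C1galt1 lay at 14.6 to 36.7 FPKM in descending mutants against 27.98 to 38.7 FPKM in descending controls, and at 18.3 to 34.3 FPKM in ascending mutants against 21.5 to 45.7 FPKM in ascending controls. For both genes the genotypes overlapped in both regions, and the sources used here do not name the deleted part of C1galt1. Epithelial markers summed to 3419 to 6919 FPKM in descending libraries and 4276 to 7420 FPKM in ascending libraries, and none of the 10 was at 0 throughout. The table holds no read counts. Read depth, estimated from the steps between low FPKM values, ran from 1.43 M to 8.86 M reads, and 1 read was worth 0.0455 to 0.282 FPKM for Hoxd13.

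Several libraries stood apart in the posterior Hox genes. To place each library along the colon, its log2(FPKM + 1) of every member was set on a scale where 0 is the mean of the ascending libraries and 1 the mean of the descending libraries, with the library itself left out of both, and the median over the 8 members was taken. The members' own difference between regions makes this scale, so a place is a description and no test. Of the 15 descending libraries, 13 had a place between 0.97 and 1.17, descending mutant A1 had 0.79 and descending control A2 had 0.38. Of the 15 ascending libraries, ascending control B1 had the highest place at 0.15, ascending mutant C3 had 0.08, and the other 13 lay between -0.18 and 0.02. With the median no library of one region lay within the range of the other. With the mean over the members in its place, descending control A2 had 0.58 and ascending control B1 had 0.64, so that B1 lay above A2. Ascending control C1 then had 0.48 and ascending mutant C3 had 0.33. Hoxa11, whose regions differ least, had the largest scaled value of the members in each of these libraries. It was 2.023 in descending control A2, 2.965 in ascending control B1, 2.345 in C1 and 1.322 in mutant C3, so these means lean on Hoxa11. From the 3 members of paralog group 13 alone descending control A2 had 0.68 and ascending control B1 had 0.30.

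The same place was taken from genes other than Hox genes that differ between regions, chosen in the libraries of the other genotype. These were 679 genes for placing mutants and 726 for placing controls. Descending mutant A1 had 0.92 and descending control A2 had 0.64 on that scale, while the other descending libraries lay between 0.95 and 1.09. Ascending control B1 had 0.11, and the other ascending libraries lay between -0.09 and 0.05. Descending control A2 was the lowest descending library and ascending control B1 the highest ascending library on both scales, whereas ascending mutant C3 (-0.01) lay among the others there.

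**Figure D1:**
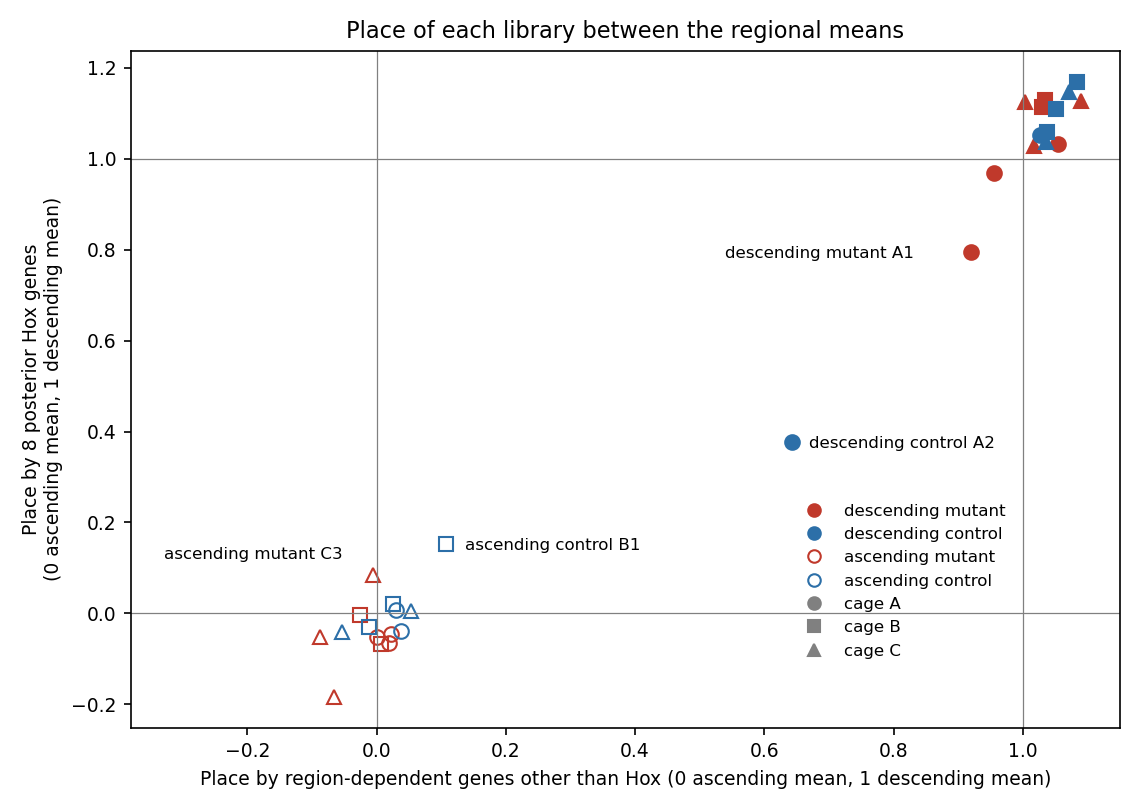
Place of each of the 30 libraries between the regional means (0, ascending mean, and 1, descending mean), from the 8 posterior Hox genes on the vertical axis and from region-dependent genes other than Hox genes on the horizontal axis. Red marks mutants and blue controls, filled symbols descending and open symbols ascending libraries, and shapes the cages. Descending control A2 lies at 0.64 by other genes and at 0.38 by the posterior Hox genes.

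Hoxd13, the last gene of the D cluster and a gene needed in the mouse for digits and the anal sphincter, lies at chr2:74668310-74671599 on the plus strand (GRCm38, GENCODE) and separated the regions in all 30 libraries. Its FPKM had a lowest, median and highest value of 41.1, 84.6 and 97.7 in the 8 descending mutants, and of 0.38, 89.0 and 123 in the 7 descending controls. It was listed at 0 in all 8 ascending mutants and all 7 ascending controls. The value of 0.38 FPKM belonged to descending control A2, the only descending library under 41.1 FPKM, and the regions did not overlap. At an estimated depth of 3.14 M reads that value rests on few reads. With 1 read worth up to 0.282 FPKM, it is near the floor of the ascending libraries. Being listed at 0 sets a limit of detection at this depth, not an absence.

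Hoxa13, the last gene of the A cluster, acts together with Hoxd13 in digits, and in hindgut and genital development, and lies at chr6:52257694-52260880 on the minus strand. The lowest, median and highest FPKM were 24.9, 30.6 and 38.04 in descending mutants, and 20.6, 34.1 and 45.3 in descending controls. In ascending mutants it had 0, 0.02 and 6.56 FPKM, and in ascending controls 0, 0.93 and 27.2 FPKM. Ascending control B1 held the 27.2 FPKM, which lay within the descending range, followed by 10.5 FPKM in ascending control C1 and 6.56 FPKM in ascending mutant C3, while the other 12 ascending libraries had at most 1.10 FPKM.

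Hoxb13, the last gene of the B cluster, limits growth of the tail and is needed in the prostate of the mouse, and lies at chr11:96194316-96197447 on the plus strand. It was the most abundant member in each of the 15 descending libraries. Its FPKM had a lowest, median and highest value of 146, 261 and 286 in descending mutants, and of 44.5, 235 and 341 in descending controls. In ascending mutants these were 0, 0 and 1.04 FPKM, and in ascending controls 0, 0 and 4.55 FPKM. The 44.5 FPKM again belonged to descending control A2, the 4.55 FPKM to ascending control B1 and the 1.04 FPKM to ascending mutant C3. The regions did not overlap.

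The windows before the starts of Hoxa13 and Hoxd13 are shown because these paralogs of the last group parted in descending control A2 and ascending control B1. They are the 250 bases before the RefSeq start (build GRCm38.p6), 5′ to 3′ on the strand of the gene, chr6:52260881-52261130 on the minus strand for Hoxa13 and chr2:74667975-74668224 on the plus strand for Hoxd13. Capitals mark each CG pair.
Hoxa13: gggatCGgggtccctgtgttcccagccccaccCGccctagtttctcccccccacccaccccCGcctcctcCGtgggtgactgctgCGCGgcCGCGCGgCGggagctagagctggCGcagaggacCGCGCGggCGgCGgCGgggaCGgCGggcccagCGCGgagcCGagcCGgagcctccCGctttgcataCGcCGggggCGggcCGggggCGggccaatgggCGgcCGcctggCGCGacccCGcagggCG
Hoxd13: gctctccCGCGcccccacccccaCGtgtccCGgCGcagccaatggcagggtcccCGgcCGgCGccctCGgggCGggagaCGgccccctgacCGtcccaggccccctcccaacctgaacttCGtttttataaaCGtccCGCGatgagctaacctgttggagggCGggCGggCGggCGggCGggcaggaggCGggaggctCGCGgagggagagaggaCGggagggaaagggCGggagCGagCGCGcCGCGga
Both windows are dense in CG pairs, with 35 for Hoxa13 and 31 for Hoxd13. Over the RefSeq windows of 300 bases, which reach 50 bases past the start, Hoxa13 had 45 and Hoxd13 had 37 CG pairs, and the median of 32851 windows was 7. Of the 8 members, 7 had an entry, with 9 windows in all, and Hoxb13 had none. The word CAATAAA, searched on both strands, was in 0 of the 9 windows and in 4.6% of all windows, and CGTAAA was in 1 of the 9, a Hoxd11 window, and in 3.03% of all. A match is no evidence of binding, and a missing match says only that these letters are not in the window.

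Hoxd11, Hoxd10 and Hoxd9 lie 3′ of Hoxd13 on chromosome 2 and were all lower than it in 14 of 15 descending libraries, with descending control A2 the exception. Hoxd11, which patterns the forearm and the kidney together with Hoxa11, lies at chr2:74679557-74687016 on the plus strand. The lowest, median and highest FPKM were 3.32, 13.6 and 16.1 in descending mutants, and 0, 13.5 and 16.5 in descending controls. In ascending mutants these were 0, 0.18 and 0.49 FPKM, and in ascending controls 0, 0.07 and 0.47 FPKM. The descending library at 0 was control A2, and the other 14 descending libraries all lay above every ascending library.

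Hoxd10, which shapes lumbar motor neurons, lies at chr2:74691924-74695105. Its FPKM had a lowest, median and highest value of 5.00, 24.4 and 70.2 in descending mutants, and of 0.60, 23.8 and 40.2 in descending controls. In ascending mutants these were 0, 0.57 and 1.60 FPKM, and in ascending controls 0.12, 0.36 and 0.74 FPKM. Descending control A2 (0.60 FPKM) was the only descending library within the ascending range, and descending mutant C1 (70.2 FPKM) stood highest, with 40.2 FPKM in descending control B3 next.

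Hoxd9, which acts with Hoxa9 in the upper limb, lies at chr2:74697727-74700208. The lowest, median and highest FPKM were 1.21, 6.32 and 19.6 in descending mutants, and 0.30, 5.10 and 8.83 in descending controls. In ascending mutants these were 0, 0.32 and 0.98 FPKM, and in ascending controls 0.24, 0.47 and 0.79 FPKM. Descending control A2 (0.30 FPKM) again lay within the ascending range, and descending mutant C1 (19.6 FPKM) was again the highest.

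Hoxa10, needed in the mouse for the lumbar spine and for fertility of the uterus, lies at chr6:52231197-52240854 on the minus strand. Its FPKM had a lowest, median and highest value of 11.4, 14.4 and 20.2 in descending mutants, and of 12.8, 14.6 and 18.3 in descending controls. In ascending mutants these were 0, 0.39 and 6.47 FPKM, and in ascending controls 0.17, 2.65 and 16.5 FPKM. Ascending controls B1 (16.5 FPKM) and C1 (14.9 FPKM) lay within the descending range, and ascending mutant C3 (6.47 FPKM) came next. Descending control A2, at 18.1 FPKM, lay among the other descending libraries.

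Hoxa11, which patterns limb, kidney and uterus and lies at chr6:52242106-52245810 on the minus strand, was the lowest member in the descending colon. The lowest, median and highest FPKM were 0.41, 0.84 and 1.44 in descending mutants, and 0.58, 1.06 and 1.48 in descending controls. In ascending mutants these were 0, 0.12 and 1.13 FPKM, and in ascending controls 0.08, 0.50 and 2.84 FPKM. The highest values of all 30 libraries, 2.84 and 2.02 FPKM, were in ascending controls B1 and C1. An antisense gene, Hoxa11os, covers 35.0% of the exonic bases of Hoxa11, and the sources used here do not say whether reads were counted by strand, so reads of the pair may be mixed. Smaller shares of Hoxd10 (5.73%) and Hoxd11 (10.8%) overlap the gene Gm28309 on the same strand. No pair of members, of 28, shares a run of bases as long as a read.

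**Figure D2:**
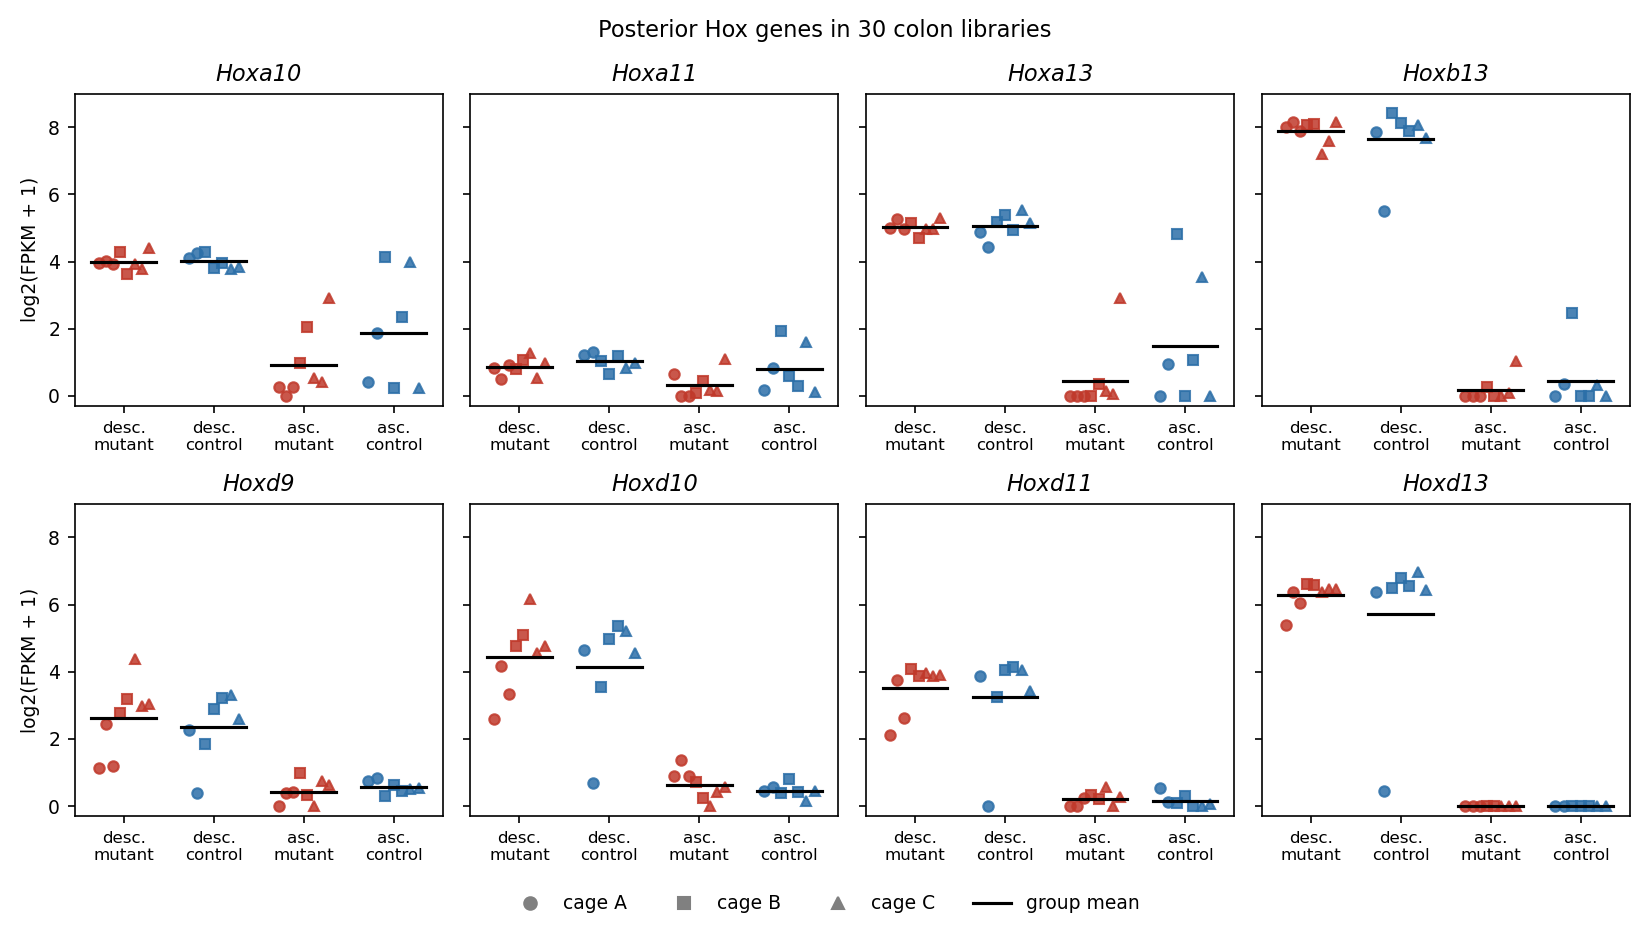
Level of each posterior Hox gene as log2(FPKM + 1) in descending mutants, descending controls, ascending mutants and ascending controls, with 1 point a library, shapes for cages and a line at the group mean. Hoxd13 is at 0 in all 15 ascending libraries and at 0.38 FPKM in 1 descending control, and Hoxa10 and Hoxa13 are high in a few ascending libraries.

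FPKM is scaled by gene length, so levels can be set in order between genes. In the descending colon the order of medians was Hoxb13 (254 FPKM), Hoxd13 (86.8), Hoxa13 (30.8), Hoxd10 (23.8), Hoxa10 (14.4), Hoxd11 (13.6), Hoxd9 (5.78) and Hoxa11 (0.99). Hoxb13 was above Hoxd13 in 15 of 15 libraries, and Hoxd13 above Hoxa13 in 14 of 15, with descending control A2 the exception. Hoxa10 was above Hoxd11 in 9 of 15, and Hoxd10 above Hoxa10 in 11 of 15, so the middle of the order changed with the library. The ratio of Hoxd13 to Hoxa13 within a library, which does not depend on its scaling, was 1.34 to 3.78 in the other 14 descending libraries and 0.0185 in descending control A2. The ratio of Hoxb13 to Hoxa13 was 4.83 to 10.9 in those 14 libraries and 2.16 in descending control A2. In the ascending colon all 8 medians lay at or under 0.44 FPKM, and neighbours in that order overlapped.

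The regions were then compared within each genotype. With limma on log2(FPKM + 1), cage as a covariate and Benjamini-Hochberg adjustment over all genes tested, 8 of 8 members were higher in descending than in ascending mutants, and 7 of 8 in descending than in ascending controls. In mutants 44.0% of 12203 genes passed in either direction and 29.7% were higher in the descending colon, and in controls 37.9% of 12515 passed and 25.1% were higher there. The median difference over the 8 members was 3.56 in mutants and 3.34 in controls on the log2(FPKM + 1) scale, against 0.16 and 0.14 over all genes tested. A gene was tested if its mean reached 0.5 FPKM, and 5 members in mutants and 3 in controls had an ascending mean under it, so that they were tested through their descending level and had to differ. These members were Hoxa11, Hoxb13, Hoxd9, Hoxd11 and Hoxd13 in mutants, and Hoxd10, Hoxd11 and Hoxd13 in controls. Passing the test is no evidence for them, and those counts and medians are no support for the members as a group.

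Hoxb13 differed most, by 7.72 ± 0.17 (log2(FPKM + 1), descending minus ascending, ± SE) in mutants and by 7.20 ± 0.41 in controls (adjusted p = 9.43e-08 in controls). Hoxd13 followed with 6.29 ± 0.13 in mutants and 5.72 ± 0.72 in controls. Without descending control A2, a library picked for its own low value, the difference in controls was 6.59. Hoxd13 was 0 in every ascending library, so no p is given for it. Hoxa13 differed by 4.60 ± 0.32 in mutants (adjusted p = 6.43e-09) and by 3.59 ± 0.65 in controls (adjusted p = 8.10e-04). Hoxd10 differed by 3.79 ± 0.37 and 3.68 ± 0.53 in mutants and controls, Hoxd11 by 3.32 ± 0.21 and 3.09 ± 0.49, and Hoxd9 by 2.20 ± 0.29 and 1.78 ± 0.34. All were past the threshold of 0.05 in both genotypes, which counts only for Hoxd10 in mutants and Hoxd9 in controls.

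Hoxa10 differed by 3.07 ± 0.32 in mutants (adjusted p = 7.89e-07) and by 2.12 ± 0.60 in controls (adjusted p = 0.0136). Without descending control A2 the control value was 2.0 (adjusted p = 0.0224), and without ascending control B1 or C1 it was 2.50 or 2.56. Hoxa11 passed in mutants (0.55 ± 0.16), where it was tested through its descending level, and not in controls (0.24 ± 0.28, adjusted p = 0.515). With ascending controls B1 and C1 and descending control A2 all left out, libraries chosen by their member values, the control difference of Hoxa11 was 0.65. With the same libraries left out Hoxa13 differed by 4.76, Hoxa10 by 3.01 and Hoxd13 by 6.57 in controls.

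The size of these differences depends on the pseudocount where the ascending level is near 0. With 0.1 in place of 1, Hoxd13 differed by 9.59 in mutants and 8.81 in controls, Hoxd11 by 5.60 and 5.09, and Hoxd9 by 3.77 and 2.70. Under the same pseudocount Hoxa13 differed by 7.14 in mutants, and Hoxa11 by 1.73 in mutants and 0.82 in controls. No fold is given for Hoxd13, since it is listed at 0 in every ascending library.

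**Figure D3:**
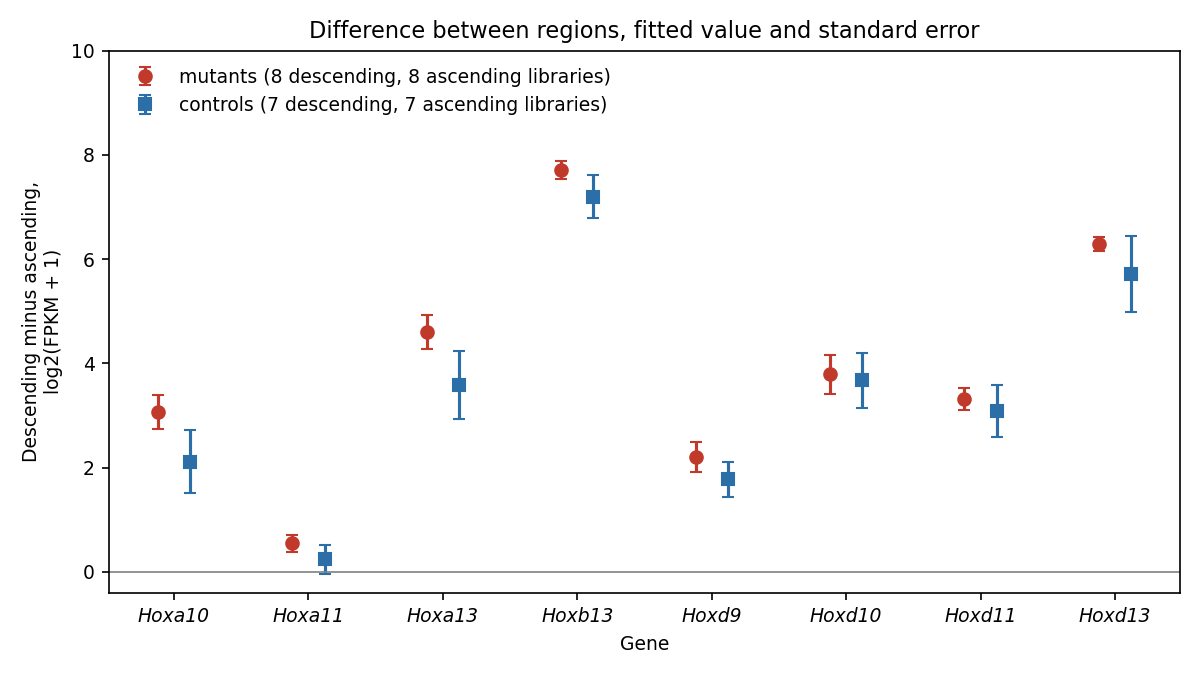
Difference between regions, descending minus ascending, on the log2(FPKM + 1) scale for each member, with the fitted value and its SE in mutants (red circles) and controls (blue squares). Hoxb13 (7.72 in mutants and 7.20 in controls) and Hoxd13 (6.29 and 5.72) lie highest, and Hoxa11 (0.55 and 0.24) lies nearest to 0.

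Markers of other tissue layers moved with region. Of 10 smooth muscle markers, 9 were higher and 1 lower in descending than in ascending mutants, with a summed level of 50.3 to 305 FPKM in descending mutants and 24.1 to 73.7 FPKM in ascending mutants. In controls 1 was higher and 1 lower past the threshold, with sums of 38.9 to 468 FPKM in descending controls and 35.9 to 450 FPKM in ascending controls. The medians of these sums were 217 and 83.6 FPKM. In each genotype 9 of the 10 differences were above 0, with a median of 1.77 in mutants and 1.39 in controls. Of 10 fibroblast and matrix markers, 6 were higher in descending mutants and 0 in descending controls, and 3 of 3 tested T cell markers were lower in the descending colon of both genotypes. No smooth muscle or fibroblast marker was at 0 throughout. Descending control B1 had the lowest smooth muscle sum of the descending libraries, 38.9 FPKM, and held 341 FPKM of Hoxb13 and 89.0 FPKM of Hoxd13. Ascending control B1 had the highest of the ascending libraries, 450 FPKM, and also the highest ascending values of Hoxa10 (16.5 FPKM), Hoxa11 (2.84 FPKM), Hoxa13 (27.2 FPKM) and Hoxb13 (4.55 FPKM), with Hoxd13 at 0. The part of tissue composition in these differences was not tested. In tissue libraries more cells of a type and more RNA per cell cannot be told apart.

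Within cages the differences kept their direction in both genotypes. In mutants of cages A, B and C Hoxd13 differed by 5.93, 6.60 and 6.44, and Hoxb13 by 8.01, 7.96 and 7.27. In controls of cages A, B and C Hoxd13 differed by 3.42, 6.61 and 6.69, and Hoxb13 by 6.51, 7.32 and 7.71. Cage A holds 2 control libraries a region, and with cage A alone 2 of 8 members passed in controls, Hoxa13 and Hoxb13. Hoxa10 in controls had differences of 3.04, 1.78 and 1.70 and passed in no cage alone, and Hoxd9 had 0.53, 2.18 and 2.42. Hoxa10 also lost its call in controls without cage A (adjusted p = 0.0824) and without cage B (0.0595), Hoxd9 without cage B (0.0730), and Hoxa13 with cage B alone (0.0767) or cage C alone (0.0512). Hoxa11 lost its call in mutants without cage A (0.0603), without cage B (0.0700), with cage B alone (0.193), with cage C alone (0.284) and in 1 fit of all 30 libraries (0.0557).

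Mutants were then compared with control littermates within each region, the comparison that the study's design names. In the descending colon 0 of 8 members passed, and 0% of 12219 genes did (267 had an unadjusted p under 0.05). The median difference over the members was 0.36, mutant minus control, against -0.04 over all genes. Hoxd13 had the largest, 0.75 ± 0.67 (adjusted p = 0.999). Without descending control A2 the values of Hoxd13, Hoxd11, Hoxd10 and Hoxb13 were -0.20, -0.11, -0.09 and -0.08, so the positive sign of these members rested on that library. Hoxa10 (-0.01 ± 0.13), Hoxa13 (-0.03 ± 0.14) and Hoxa11 (-0.17 ± 0.15) lay nearer to 0. The ranges of mutants and controls overlapped for all 8 members. Smooth muscle markers had a median difference of -0.64 there, with 0 of 10 above 0 and none past the threshold, and their part was not tested.

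In the ascending colon 4 members reached the filter and 0 of them passed, and 0% of 12178 genes did (1396 had an unadjusted p under 0.05). Without ascending mutant B1 170 genes passed, and with array quality weights 746 did. Hoxa13 differed by -0.99 ± 0.69 (adjusted p = 0.595), Hoxa10 by -0.84 ± 0.61 (0.614), Hoxa11 by -0.45 ± 0.28 (0.556) and Hoxd10 by 0.17 ± 0.15 (0.680), in limma with Benjamini-Hochberg adjustment. Markers of other tissue layers lay on the same side, with 0 of 10 smooth muscle markers (median -1.07) and 0 of 10 fibroblast and matrix markers (median -0.92) above 0, none past the adjusted threshold and 2 and 7 with an unadjusted p under 0.05. Their part in the values of the members was not tested. Without ascending control B1 the values were -0.53 for Hoxa13 and -0.56 for Hoxa10, and without ascending control C1 they were -0.61 and -0.39. The difference between the genotypes in their regional difference was tested as an interaction over 30 libraries, and 0 of 8 members and 0% of 12353 genes passed (198 had an unadjusted p under 0.05). The interaction ran from 0.25 ± 0.55 for Hoxd10 to 0.97 ± 0.76 for Hoxa13 (adjusted p = 0.9999 for each member), and for Hoxd13 it was -0.20 without descending control A2. A p that misses the threshold does not show that mutants and controls were alike, and the SE of 0.13 to 0.67 in the descending colon sets what could be seen.

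The cages were compared within each region with a moderated F test. In the descending colon 0 of 8 members passed, against 0.597% of 12219 genes, and in the ascending colon 0 of 4, against 1.32% of 12178 genes. Hoxd9 came nearest, with an F of 10.97 in the descending colon (adjusted p = 0.0983). Its FPKM in cage A was 1.21, 4.49 and 1.27 in descending mutants and 3.80 and 0.30 in descending controls. In cage B it was 5.78 and 8.05 in descending mutants and 2.60, 6.40 and 8.25 in descending controls, and in cage C 19.6, 6.85 and 7.19 in descending mutants and 8.83 and 5.10 in descending controls. All 5 values of cage A lay under the 5 of cage C, and cages A and B overlapped. Hoxd9 passed with array quality weights (adjusted p = 0.0257), in 1 fit of all 30 libraries (0.0168) and without descending mutant A2 (0.0447) or descending control A1 (0.0485).

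Hoxd10 and Hoxd11 had the next values in the descending colon, with F of 6.58 (adjusted p = 0.212) and 4.87 (0.297). The median of Hoxd10 was lowest in cage A too, where descending mutants had 5.00, 17.1 and 9.09 FPKM and descending controls 23.8 and 0.60 FPKM. The test of a regional difference that depends on cage called 0 of 8 members, against 0.113% of 12353 genes. Hoxd10 (adjusted p = 0.220) and Hoxd9 (0.229) came nearest there, and Hoxd10 passed without descending control A1 (0.0385), Hoxd9 without descending mutant A2 (0.0442) and with array quality weights (0.0357).

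The members parted by cluster in the libraries that stood apart. In descending control A2 the D cluster members were at the ascending level, with scaled values of -0.06 for Hoxd9, 0.03 for Hoxd10, -0.05 for Hoxd11 and 0.07 for Hoxd13. In the same library Hoxa10 (1.11) was at the descending level and Hoxb13 (0.68) lay between. Hoxa13 (0.84) lay near the descending level, though its 20.56 FPKM was the lowest of the descending libraries. Ascending control B1 showed the same division between the members, though not over the whole D cluster. It had Hoxa10 at 1.05, Hoxa13 at 0.95, Hoxb13 at 0.30 and the 4 D cluster members between -0.10 and 0. Ascending control C1 had Hoxa10 at 1.00, Hoxa13 at 0.65 and Hoxb13 at 0.003, and ascending mutant C3 had 0.60, 0.50 and 0.10, with D cluster members at the ascending level in both. These libraries were picked for their values, so the pattern is a description. Marker sums of descending control A2 and ascending control B1 stood out as well, and the part of tissue composition in the pattern was not tested.

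The other Hox genes of the table place these libraries further. In descending control A2 Hoxa9 was 24.3 FPKM, against 6.13 to 12.6 FPKM in the other descending libraries, and Hoxa7 was 38.6 FPKM against 12.3 to 26.1 FPKM. Hoxd12, the neighbour of Hoxd13, was 0 there and 2.27 to 14.2 FPKM in the other descending libraries. Ascending control B1 had 2.57 FPKM of Hoxb8, against 11.5 to 29.5 FPKM in the other ascending libraries and 0.05 to 0.92 FPKM in descending ones. Its Hoxd4 (0.99 FPKM), Hoxd3 (0.22 FPKM) and Hoxd8 (0.90 FPKM) lay within the descending ranges. The other ascending libraries had 3.65 to 15.26, 0.52 to 4.64 and 1.41 to 4.07 FPKM of them. In descending control A2 Hoxd4 (2.43 FPKM), Hoxd3 (0.28 FPKM), Hoxd8 (0.22 FPKM) and Hoxb8 (0.66 FPKM) all lay under the ascending libraries other than B1. Ascending control C1 had 20.7 FPKM of Hoxb8, so its B cluster lay at the ascending level although its Hoxa9 reached 16.05 FPKM.

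Some regional transcription factors outside the clusters gave a like picture for ascending control B1, and others did not. Osr2, an odd-skipped zinc finger factor, was 2.32 FPKM in it, against 35.8 to 76.8 FPKM in the other ascending libraries and 0 to 0.48 FPKM in descending ones. Tbx3, a T-box repressor, was 3.56 FPKM, against 13.6 to 31.0 FPKM and 0.16 to 0.85 FPKM. Cdx2, a homeobox factor of the intestine that acts upstream of Hox genes, was 128 FPKM, within the ascending range of 119 to 208 FPKM. Sox9 (15.15 FPKM) and Zfp503 (3.7 FPKM) also lay within the range of the other ascending libraries. Klf5, of the same list, was 103.84 FPKM in ascending control B1 and so lay away from the descending side. It was 146.05 to 180.58 FPKM in the other ascending libraries and 179.75 to 268.37 FPKM in descending ones. In descending control A2 Cdx2 was 73.3 FPKM, against 2.79 to 47.6 FPKM in the other descending libraries, and the 47.6 FPKM belonged to descending mutant A1, the next library on the Hox scale. Osr2 was 0 and Tbx3 0.50 FPKM in descending control A2, both within the descending range.

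**Figure D4:**
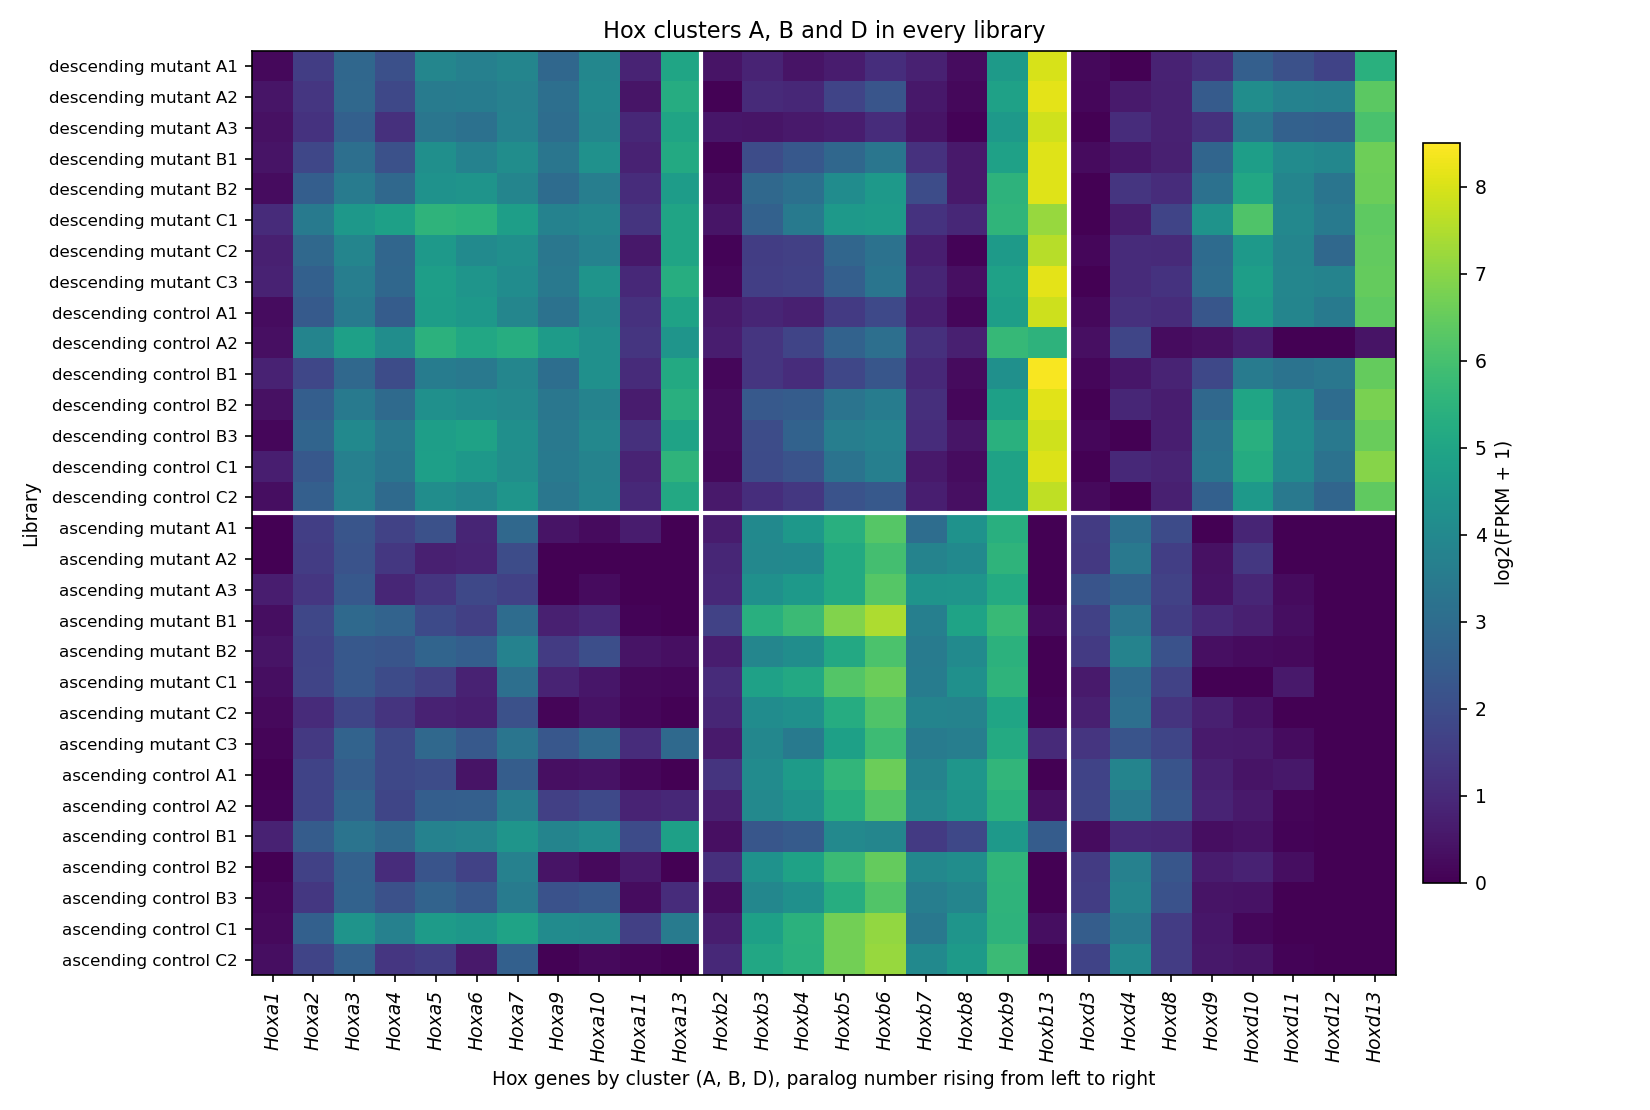
Heat map of log2(FPKM + 1) for the Hox genes of the A, B and D clusters in the table, ordered by paralog number within a cluster, in all 30 libraries, with descending libraries above ascending ones and mutants above controls. Descending control A2 is dark across the posterior D cluster (Hoxd13 0.38 FPKM) and bright across the A cluster (Hoxa9 24.3 FPKM), and ascending control B1 is bright at Hoxa13 (27.2 FPKM).

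The table holds 5 other posterior Hox genes, of which 3 were tested, and 2 were higher in the descending colon of both genotypes, Hoxa9 (2.49 in mutants and 1.72 in controls) and Hoxd12 (3.17 and 2.75). Hoxb9, the third, was lower in descending mutants (-0.44, adjusted p = 0.0207 by limma) and did not pass in controls (-0.46, adjusted p = 0.0930). The table also holds 21 anterior and central Hox genes, of which 17 were tested. In mutants 6 were higher and 11 lower in the descending colon, and in controls 2 were higher and 11 lower, with medians of -0.95 in mutants and -1.10 in controls. The genes that were lower belonged to the B and D clusters and the C cluster, with Hoxb8 at -3.81 and -3.62, Hoxb6 at -3.40 and -3.30 and Hoxd4 at -2.30 and -2.58 in mutants and controls. Those that were higher in both genotypes were Hoxa5 (2.51 and 1.76) and Hoxa6 (2.61 and 2.09). The list of 9 Hox cofactors had 6 members tested in mutants, 2 higher and 1 lower, and 7 in controls, 1 higher and 0 lower.

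The genes most like the members were found by the distance of their standardised log2(FPKM + 1) from the mean standardised profile of the members, over the 10992 genes whose mean in descending libraries reached 1 FPKM. Over all 30 libraries these were Pla2g4f (0.22), Hmcn1 (0.22), Syn2 (0.26), Camsap2 (0.26) and Thbs4 (0.26), where the median gene had 1.19. All 30 libraries fall into 2 regions, so this nearness is set mainly by the difference between regions. Over the 15 descending libraries alone they were Pgap3 (0.33), B4galnt3 (0.38), Ctns (0.41), Evx2 (0.43) and Camsap2 (0.43), where the median gene had 1.38. Descending control A2, lowest of the descending libraries by place, was also the lowest of them in each of these genes, so 1 library weighs in this nearness. Evx2, a homeobox gene beside Hoxd13, was 0 in descending control A2, 1.18 FPKM in descending mutant A1 and up to 5.19 FPKM in the other descending libraries. B4galnt3, an N-acetylgalactosaminyltransferase, was 24.2 FPKM in descending control A2 and 55.3 FPKM in descending mutant A1, with a highest value of 116 FPKM. The members themselves differed in this measure over the descending libraries, from 0.34 for Hoxd11 and 0.44 for Hoxd13 to 1.40 for Hoxa10 and 1.46 for Hoxa11. The measure is a description over libraries that share cages and, for the members, a mean profile to which they belong.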

How the data were processed

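RNA was extracted with the Zymo Direct-Zol kit, depleted of rRNA from 1 µg of total RNA and sequenced as single reads of 50 nt, per the labels' protocols. The deposited values are FPKM as the authors computed them, with 2 decimals. The submitters' processing notes name bcl2fastq 2.17, STAR, DESeq2 and GRCm38 (mm10). The sources used here do not give the counter, the annotation release, the gene filter or the use of strand. With FPKM, a count test was not run, and read depth is an estimate that entered no test.

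From these values log2(FPKM + 1) was computed and tested with limma 3.58.1 in R 4.3.3 (moderated t and F tests with a mean trend, two-sided, Benjamini-Hochberg over all genes whose mean reached 0.5 FPKM, threshold 0.05), with cage as a covariate. The fits were checked on simulated data. Regions were compared within each genotype, genotypes and cages within each region, and both interactions over 30 libraries. Alternatives changed the pseudocount, filter, scaling, weights, cages and libraries, and those leaving out libraries that stand apart were chosen after seeing the data. Genes other than Hox genes used for placing had a mean of at least 5 FPKM and an absolute difference above 1. The 5 nearest genes were named in each set of libraries. Members and gene lists were chosen with earlier results of these data known. Positions are from GENCODE (GRCm38) and promoter windows from RefSeq (GRCm38.p6).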

Additional observations from a re-analysis of the deposited data

Results flagged for a closer look

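Each group of 7 or 8 libraries was searched for a library far from the rest. The measure was the gap to its nearest neighbour over the group's whole range (Dixon's test at 95%). For members this was taken on log2(FPKM + 1), although the values below are printed as FPKM, and low values weigh more on that scale. Of 34 groups tested, each a set of libraries with 1 member or the place, 10 held such a library. The same libraries were tested again for each member, and the place is made from the members. The groups are therefore not separate, and a rate of about 1 in 20 for separate groups cannot be set against the 10. In ascending groups many values also lay at the floor, so the search is a description.

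Descending control A2 was far below the other descending controls in Hoxb13 (44.48 FPKM), Hoxd10 (0.60 FPKM), Hoxd11 (0 FPKM) and Hoxd13 (0.38 FPKM), and in its place between the regional means (0.3769). Descending mutant A1 was below the other descending mutants in Hoxd13 (41.13 FPKM), and only just passed, with a gap of 0.5292 of the range against a critical value of 0.526. Ascending mutant C3 was far above the other ascending mutants in Hoxa13 (6.56 FPKM) and Hoxb13 (1.04 FPKM). Ascending control B1 was far above the other ascending controls in Hoxb13 (4.55 FPKM) and in its place (0.1524). In descending control A2 the macrophage markers summed to 168 FPKM, against 18.4 to 52.8 FPKM in the other descending controls. Lyz2 alone held 136.53 FPKM of that sum. C1qa, Cd68, Adgre1 and Csf1r were also highest there, while C1qb (4.63 FPKM) and C1qc (1.33 FPKM) lay within the range of the other descending controls. The neuron and glia markers of descending control A2 summed to 9.22 FPKM, the highest of that group. Its epithelial (3646 FPKM) and goblet (3082 FPKM) sums were the lowest of that group, and its smooth muscle sum (172 FPKM) lay within the range. The goblet markers went opposite ways in it. Muc2 (2135.7 FPKM) and Spdef (82.07 FPKM) were the highest of the descending controls, and every other goblet marker was the lowest, as Zg16 (62.59 FPKM) and Tff3 (103.79 FPKM). In ascending control B1 the smooth muscle (450 FPKM) and epithelial (7420 FPKM) sums were the highest of the ascending controls and the goblet sum (2964.5 FPKM) the lowest. The part of tissue composition, or of the point of the colon at which tissue was taken, was not tested.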

How the results depend on the processing

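Between regions 2 to 8 members passed in controls over 31 alternatives (7 in the main setting, 5 or 6 with some cages left out or alone), and 7 or 8 in mutants over 32. In controls of cage A alone 2 members passed, with 156 genes in all against 4744. With cage B alone, cage C alone, without cage B and without cage C 1699, 2438, 2069 and 2567 genes passed in controls. In mutants 5368 genes passed, and 2098, 842 and 2860 with cage A, B and C alone and 3528 without cage C. Between genotypes in the ascending colon 0 genes passed, but 746 with array weights, 652 without cage B, 15 with cage A alone and 0 to 170 with each library left out.

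For the cages in the descending colon array weights and 1 fit of 30 libraries each called 1 member, and leaving out each library called 0 to 1. Over all genes these called 973, 205 and 33 to 176, against 73. For the dependence of region on cage array weights called 1 member, and leaving out each library 0 to 1, with 382 and 7 to 150 genes against 14, and 26 without the libraries that stand apart. For the cages in the ascending colon 161 genes passed, 1579 with array weights, 326 without the libraries that stand apart and 44 to 581 with each library left out.

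No genotype value that changed sign passed the test. In the descending colon the sign changed with median-of-ratios scaling (Hoxa10 0.041, Hoxa13 0.024), quantile scaling (Hoxa10 0.020) and array weights (Hoxa10 0.084, Hoxd9 -0.13, Hoxd10 -0.40, Hoxd11 -0.16, Hoxd13 -0.10). It changed without cage A (Hoxa10 0.091, Hoxa11 0.0051, Hoxb13 -0.14, Hoxd13 -0.13), with cage A alone (Hoxa13 0.42), without cage B (Hoxa10 0.011, Hoxa13 0.079), with cage B alone (Hoxb13 -0.057, Hoxd13 -0.0056), without cage C (Hoxa13 0.088) and with cage C alone (Hoxa10 0.23, Hoxa11 0.026, Hoxb13 -0.23, Hoxd13 -0.25). Leaving out each library gave -0.081 to 0.075 for Hoxa10, -0.15 to 0.058 for Hoxa13, -0.075 to 0.49 for Hoxb13, -0.085 to 0.86 for Hoxd10, -0.11 to 0.81 for Hoxd11 and -0.20 to 1.20 for Hoxd13.

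For the interaction of region and genotype the sign changed with array weights (Hoxd10 -0.53, Hoxd11 -0.14, Hoxd13 -0.11), without cage A (Hoxd11 -0.018, Hoxd13 -0.13), with cage A alone (Hoxa11 -0.23), with cage B alone (Hoxd13 -0.0056) and with cage C alone (Hoxb13 -0.44, Hoxd11 -0.085, Hoxd13 -0.25). With the libraries that stand apart left out it was -0.056 for Hoxb13, -0.21 for Hoxd10, -0.10 for Hoxd11 and -0.20 for Hoxd13. Leaving out each library gave -0.26 to 0.69 for Hoxd10, -0.16 to 0.76 for Hoxd11 and -0.20 to 1.20 for Hoxd13. The causes were not tested.

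The deviations of same-numbered libraries of the 2 regions had correlations of -0.35 to 0.42 in 15 pairs. Of these 4 were over 0.1, the 3 mutant pairs of cage C (0.25 to 0.42) and mutant pair A1 (0.16), and 4 of 15 ascending libraries were nearest to their own number. Where a group held 2 libraries, both pairs had the same correlation by construction, so the 15 values are not separate checks. Of 12 same-numbered genotype pairs 7 were over 0.1 (-0.26 to 0.46). A mutant and a control cannot be 1 mouse, so a value over 0.1 does not mark a pair. Since not every pair passed, the numbers were not taken to pair the libraries. With the replicate number as a block 7 members passed in controls (4236 genes) and 8 in mutants (5219 genes), 0 passed between genotypes or in either interaction, and no member's call changed. No such fit was made for the cage comparisons within a region. Over 5 alternatives the place ran from 0.36 to 0.68 for descending control A2, from 0.15 to 0.64 for ascending control B1, from -0.01 to 0.48 for ascending control C1 and from 0.08 to 0.33 for ascending mutant C3. Levels under about 1 read, 0.0455 to 0.282 FPKM for Hoxd13, cannot be seen.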
